A study of Homo sapiens with 2 samples.

Results

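The replication-dependent histone genes encode the proteins around which newly copied DNA is wrapped. Here they are the protein-coding genes of GENCODE 44 whose symbol begins with H1-, H2AC, H2BC, H3C or H4C, which gave 74 of 20046 protein-coding genes. The set held 10 H1, 17 H2A, 19 H2B, 13 H3 and 15 H4 genes. The symbols also take in H1 genes such as H1-7, H1-8 and H1-10, which lie outside the major histone clusters and carry no histone stem-loop, so the label does not hold for every gene. Genes were chosen by symbol and not by any measured value.

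IGF2BP3 LACE-seq, in which the RNA crosslinked to a protein by UV light is immunoprecipitated and sequenced, was performed in OE-19 cells. OE-19 is an established human line of adenocarcinoma of the esophagogastric junction, and the labels name no treatment, knockdown or other allele. There was 1 group of 2 replicates, which the study calls biological replicates. Input and IgG libraries were not analysed here, so the abundance of an RNA and its binding to IGF2BP3 cannot be told apart. The lists held 21142 peaks in replicate 1 and 20799 in replicate 2, with a median of 22 reads at the summit in both and a smallest summit of 4 reads. All 6 epithelial markers (KRT8, KRT18, KRT19, EPCAM, CDH1 and ERBB2) had peaks in both lists. Of 4 markers of other cells, none had a peak in both, PTPRC had 1 peak in replicate 1 and COL1A1 had 1 in replicate 2, and HBB and PECAM1 had none.

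Histone mRNAs of this kind are made in S phase, have no introns and, in contrast to other mRNAs, usually end in a conserved stem-loop and not in a poly(A) tail. The stem-loop binding protein SLBP binds it and takes part in processing, export, translation and decay of the mRNA. H2A, H2B, H3 and H4 form the nucleosome core, and H1 binds the linker DNA between cores. IGF2BP3 is an RNA-binding protein and a reader of m6A, a methyl mark that is often placed on adenosines within DRACH-type motifs such as GGAC.

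A stem-loop of 16 bases was found within 200 nt of the stop codon in 69 of the 74 genes, from 23 to 68 nt after it (median 36 nt). These sequences are shown because the peaks mostly stopped before them. They are read on the gene strand of hg38, with the 2 arms of the stem in capitals and the loop in lower case.

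40 genes of the H1, H2A, H2B and H3 classes: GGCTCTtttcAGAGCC
10 H4 genes: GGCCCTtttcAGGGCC
9 genes of the H1, H2A, H2B and H3 classes: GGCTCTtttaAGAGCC
4 H4 genes: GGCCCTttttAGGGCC

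The other 6 forms occurred in 1 gene each. No form was shared between the 15 H4 genes and the 54 other genes that have one. Genes without a match included H1-7, H1-8, H1-10 and H2BC12L.

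The first 90 coding bases of the 6 H4 genes with a peak in both replicates are given next, since the H4 class had the highest fold enrichment in replicate 1 and most of its summits lay here. Bases that differ from H4C12 are in capitals, and each sequence is read on the gene strand of hg38 from the start codon.

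H4C12, chr6:27831438-27831527, minus strand: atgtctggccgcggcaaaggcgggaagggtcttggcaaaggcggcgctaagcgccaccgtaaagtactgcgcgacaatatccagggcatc
H4C8, chr6:26285410-26285499, minus strand: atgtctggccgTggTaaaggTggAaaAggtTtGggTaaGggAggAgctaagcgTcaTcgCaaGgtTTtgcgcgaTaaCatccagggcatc
H4C4, chr6:26188987-26189076, minus strand: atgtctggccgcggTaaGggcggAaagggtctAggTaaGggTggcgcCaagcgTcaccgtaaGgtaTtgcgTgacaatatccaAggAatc
H4C16, chr12:14770995-14771084, minus strand: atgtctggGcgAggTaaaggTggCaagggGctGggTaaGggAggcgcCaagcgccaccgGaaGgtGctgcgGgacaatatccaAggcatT
H4C15, chr1:149861042-149861131, minus strand: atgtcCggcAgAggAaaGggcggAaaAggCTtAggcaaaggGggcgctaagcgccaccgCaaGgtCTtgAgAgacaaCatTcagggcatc
H4C14, chr1:149832685-149832774, plus strand: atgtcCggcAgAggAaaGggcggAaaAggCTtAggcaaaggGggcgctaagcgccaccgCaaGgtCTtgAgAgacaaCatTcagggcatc

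Between 14 and 19 of these 90 bases differed from H4C12, although 14 of the 15 H4 genes encode the same protein (103 residues), with H4C7 as the exception (98 residues). The H4C14 and H4C15 stretches were identical.

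One coding stretch of 61 bases is shown for the highest-ranked gene of each other class and for H2BC5, which was among the few genes with a GGAC near the summit in both replicates. The summit base of replicate 1, and that of replicate 2 where it fell in the stretch, are in capitals.

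H1-2, chr6:26056136-26056196, minus strand: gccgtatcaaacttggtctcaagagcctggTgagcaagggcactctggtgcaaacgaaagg
H2AC15, chr6:27838239-27838299, minus strand: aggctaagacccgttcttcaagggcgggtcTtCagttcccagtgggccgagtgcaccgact
H2BC8, chr6:26216583-26216643, minus strand: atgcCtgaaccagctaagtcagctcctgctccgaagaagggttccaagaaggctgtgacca
H2BC5, chr6:26158230-26158290, plus strand: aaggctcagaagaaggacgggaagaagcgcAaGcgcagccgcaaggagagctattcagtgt
H3C4, chr6:26197153-26197213, minus strand: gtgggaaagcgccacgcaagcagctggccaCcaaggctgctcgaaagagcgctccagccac

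IGF2BP3 peaks lay on 48 of the 74 histone genes in replicate 1 (64.9%) and on 31 in replicate 2 (41.9%). The corresponding shares of all protein-coding genes were 41.0% and 42.2%. A peak in both lists was present on 30 histone genes (40.5%, 95% Wilson interval 30.1 to 51.9%), against 34.7% of all protein-coding genes, or 30.3% when only exons of the canonical transcript were counted. On 29 of them the peaks of both replicates overlapped, against 30.5% of all protein-coding genes, and the exception was H1-10, whose 2 peaks were apart. The interval covers counting error only, and genes of a class share sequence. The share in both replicates was therefore near the background, while the share in replicate 1 was above it.

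Histone genes are short, with a median span of 509 bp against 27424 bp for all protein-coding genes. A more similar group was the 1057 other protein-coding genes with a single exon, with a median span of 1341 bp, of which 9.93% had a peak in both lists and 8.61% had overlapping peaks. Histone genes had peaks in 1.55 times as many genes in replicate 1 as in replicate 2, whereas this ratio was 0.974 over all protein-coding genes.

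By class, a peak in both lists was found on 4 of 10 H1, 10 of 17 H2A, 6 of 19 H2B, 4 of 13 H3 and 6 of 15 H4 genes. In replicate 1 alone the counts were 3 H2A, 7 H2B, 3 H3 and 5 H4 genes, and H3C15 was the 1 gene with a peak in replicate 2 alone. In these counts a peak shared by neighbouring genes counts for each of them. With each peak given to the gene with the largest coding overlap, H2AC6, H2AC11 and H2AC12 leave the genes with a peak in both lists. H2AC8, H2BC7, H2BC14 and H2BC15 then leave those with a peak in replicate 1 alone. The H1 genes with a peak, among them H1-2, H1-5 and H1-10, were the same in both replicates. The remaining 25 genes had no peak in either list. They included H1-6, H1-7, H2AC1 and H2BC1, known as testis histones, and H1-8, known from oocytes.

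**Figure D1:**
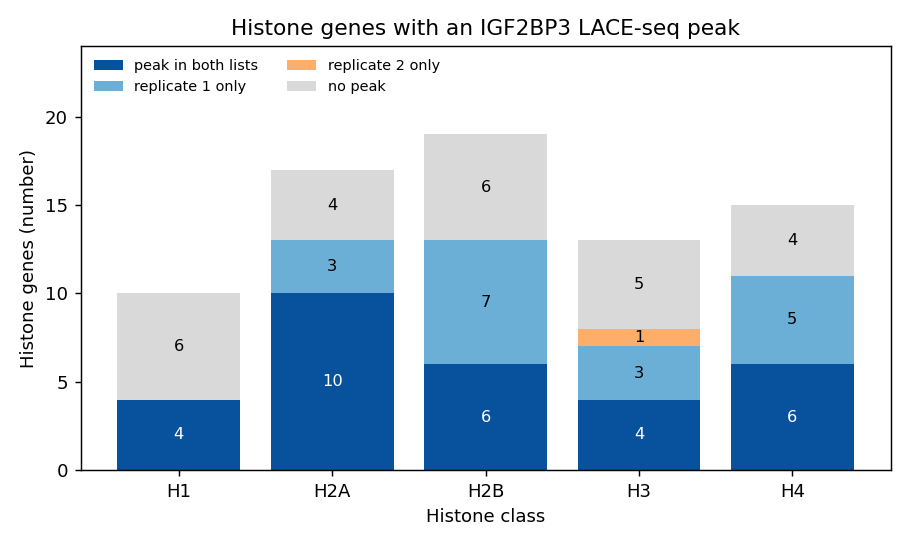
Number of histone genes (y axis) in each class (x axis) with an IGF2BP3 peak in both replicates, in 1 replicate, or in neither. H2A had the most genes with a peak in both lists (10 of 17), and H2B the most with a peak in replicate 1 only (7 of 19). A peak shared by neighbouring genes is counted for each of them, and these ranks hold for that way of counting.

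The 48 and 31 genes were covered by 43 and 31 peaks, since a peak can lie on neighbouring genes. Fold enrichment here is the authors' ratio of the signal at the summit over the local background. Its median over histone peaks was 10.8 in replicate 1 and 7.32 in replicate 2 (mean 9.06 ± 2.47, SD, n = 2). The median over all peaks was 6.89 and 7.13, so that the histone peaks stood above the list in replicate 1 and close to it in replicate 2. The median histone peak ranked at the 89.8th percentile of fold in replicate 1 and at the 53.3rd in replicate 2. In replicate 1, 21 of 43 histone peaks (48.8%) were at or above the 90th percentile of the list, and in replicate 2, 4 of 31 (12.9%) were. The median number of reads at a histone summit was 39 in replicate 1 (8 to 143) and 19 in replicate 2 (7 to 67), with 22 over all peaks in each.

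The lower values in replicate 2 ran through most genes. For 28 genes the main peaks of the gene overlapped between the lists, and 25 of them had the lower fold in replicate 2, with a median ratio of replicate 2 over replicate 1 of 0.836. A peak shared by neighbouring genes was counted here for each of them. Among all 12701 peaks of replicate 1 with an overlapping partner, the median ratio was 1.06 and 41.4% were lower in replicate 2. H1-2 and H2BC5 were among the exceptions. Of the 31 histone peaks of replicate 2, 28 (90.3%) overlapped a peak of replicate 1, but only 27 of the 43 of replicate 1 (62.8%) overlapped one of replicate 2. Over all peaks these shares were 61.2% and 60.1%. What set the replicates apart on histone genes was not tested.

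**Figure D2:**
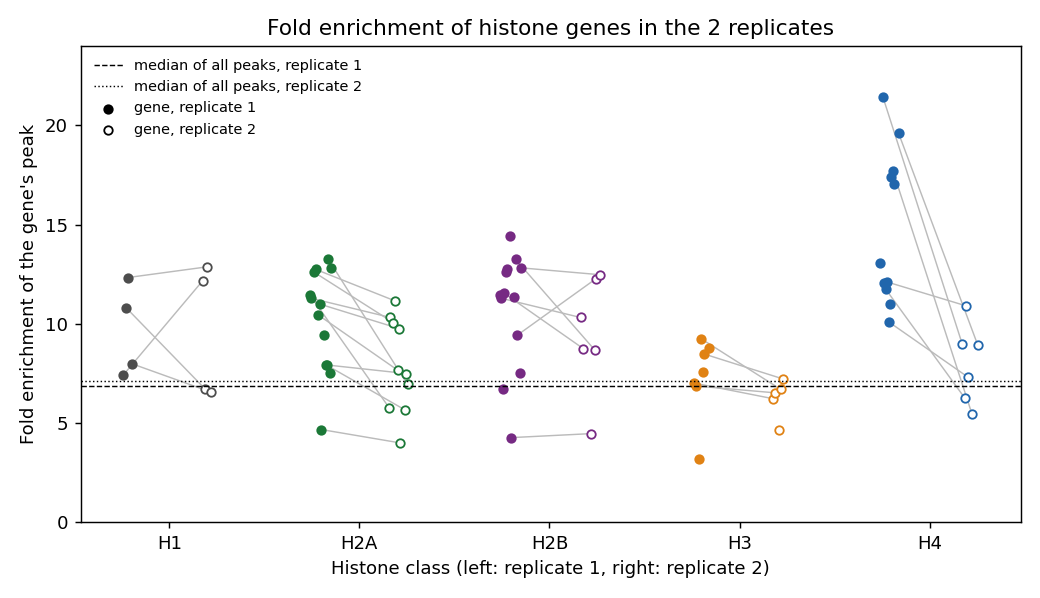
Fold enrichment of the main peak of each histone gene (y axis, linear) by class, with replicate 1 as filled and replicate 2 as open points, lines joining the same gene, and dashed and dotted lines at the median of all peaks (6.89 and 7.13). The 6 H4 genes with both values are all lower in replicate 2, with a median ratio of 0.494. A peak shared by neighbouring genes is drawn for each of them.

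H4 had the highest values in replicate 1. Its 11 genes with a peak ranged from 10.1 to 21.4 in fold enrichment (median 13.1, median percentile 95.8), and 5 of the 6 histone peaks with the highest fold in that replicate lay on H4 genes. H4C12 had a fold enrichment of 21.4 with 92 reads at the summit in replicate 1, and 9.0 with 17 reads in replicate 2. H4C8 had 19.6 with 95 reads and 8.93 with 20 reads. Both genes were thus near the top of the list in replicate 1 (99.9th and 99.7th percentile) and at the 74.7th and 74.1st in replicate 2.

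H4C15 had the most similar folds of the class, at 12.1 with 109 reads and 10.9 with 57 reads. Its summits lay 213 bp apart, at 7 and 220 nt from the start codon. Its coding sequence is identical to that of H4C14, so these values cannot be assigned to H4C15 alone. H4C4 differed most in percentile of all histone genes with both values, with a fold of 17.7 on 52 reads in replicate 1 (99.4th percentile) and 5.44 on 7 reads in replicate 2 (18.5th percentile). H4C14 had 11.7 and 6.25, and H4C16, a single gene on chromosome 12, had 10.1 and 7.32. Peaks in replicate 1 alone had folds of 17.4 on H4C3, 17.0 on H4C5, 13.1 on H4C1, 12 on H4C13 and 11.0 on H4C2. The 6 H4 genes of replicate 2 ranged from 5.44 to 10.9, with a median of 8.12.

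H3 had the lowest medians of the core histones in both replicates. Its 7 genes with a peak in replicate 1 had a median fold of 7.57 and the 5 of replicate 2 had 6.52, and the highest H3 value in replicate 1 (9.24, H3C2) lay below the lowest H4 value. H3C4 had 8.48 with 41 reads and 7.21 with 20 reads. H3C2 had 9.24 with 51 reads and 6.70 with 12 reads, and H3C12 had 6.87 with 29 reads and 6.52 with 13 reads. H3C11 had 7.01 and 6.22. H3C3 (7.57) and H3C8 (8.76) had a peak in replicate 1 alone.

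H2B genes had a median fold of 11.5 in replicate 1 (13 genes) and 9.53 in replicate 2 (6 genes). With each peak given to 1 gene, the H2B medians were 11.3 (12 peaks) and 8.74 (7 peaks). H2BC8 was high in both, at 12.8 with 52 reads and 12.5 with 32 reads. H2BC5 was higher in replicate 2, with 9.41 on 28 reads and 12.3 on 25 reads. H2BC12 had 11.3 on 45 reads and 10.3 on 26 reads. H2BC18 had the highest H2B fold of replicate 1, at 14.4, and no peak in replicate 2. H2BC4 had 13.2 and 8.68. H2BC3 had 11.4 in replicate 1 alone. H2BC21 was the lowest of the class, with 4.26 over its coding sequence in replicate 1. Its 3′ UTR held a peak of 4.80 in replicate 1 that overlapped a peak of 4.46 in replicate 2, and a further peak of 4.28 in replicate 2.

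H2A genes had a median fold of 11.0 in replicate 1 (13 genes) and 7.58 in replicate 2 (10 genes), and all 10 were lower in replicate 2. These values count a shared peak for each gene. In replicate 1 the summits given for H2AC6, H2AC8, H2AC11 and H2AC12 lay in the neighbouring H2B gene. With each peak given to 1 gene, the H2A medians were 9.43 (9 peaks) and 7.49 (9 peaks). H2AC15 had 12.7 with 39 reads and 11.2 with 20 reads. H2AC14 had 12.6 with 57 reads and 10.1 with 20 reads. H2AC12 had the same 11.3 and 10.3 as H2BC12, since the same peaks lay on both genes, and in replicate 2 that peak covered none of the coding bases of H2AC12. H2AC11 had one of the largest differences in percentile, but its values came from different summits. The fold was 11.5 in replicate 1, on the peak shared with H2BC11 and with its summit in H2BC11. In replicate 2 the fold was 5.77, on a peak with its summit upstream of H2AC11, 259 bp from the other summit. The difference therefore cannot be assigned to H2AC11 alone. H2AC6 had 13.2 in replicate 1, on the peak shared with H2BC4, and 6.94 in replicate 2, on a peak of its own. H2AC17 had 10.4 and 7.66, and H2AC4 had 7.92 and 7.49. H2AC21 had 9.43 in replicate 1 alone, on a peak that also lay on the protein-coding gene BOLA1. Which of these genes its reads came from was not tested.

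Among the linker histones, H1-2 had a fold of 12.3 with 33 reads and 12.9 with 27 reads, the highest histone value of replicate 2. H1-10 had 10.8 with 25 reads and 6.70 with 12 reads on separate peaks. H1-5 had 7.99 and 6.56. H1-1, H1-3 and H1-4, which are clustered genes, had no peak.

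By position, genes within 500 kb of each other were chained into clusters. The largest was on chromosome 6 from 25723397 to 26285638 with 34 genes, of which 20 had a peak in replicate 1, 10 in replicate 2 and 10 in both. A cluster of 16 genes lay on chromosome 6 from 27807479 to 27893891, with 11, 8 and 8, and one of 5 genes lay between them, from 27125897 to 27147562, with 4, 3 and 3 and no peak on H4C9. The 11 genes of chromosome 1 from 149782689 to 149887965 gave 8, 6 and 5, with no peak on H3C13 and H2AC20. The chromosome 1 pair of H2AC25 and H2BC26 had peaks on H2AC25 alone, at a fold of 7.95 and 5.67. On chromosome 3, H1-10 had peaks and H1-8 none. Of the genes that stood alone, H4C16 had a peak in both replicates, H2BC12L in replicate 1 alone (6.71 on 8 reads), and H1-7 in neither. The H2BC12L peak also lay on the protein-coding gene HSF2BP.

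The median fold per gene was 11.8 in replicate 1 and 8.08 in replicate 2 in the chromosome 6 cluster of 34 genes, and 12 and 8.20 in that of 16 genes. In the cluster of 5 genes it was 11.4 and 10.3. In all clusters a peak shared by neighbouring genes, such as H2BC12 and H2AC12, was counted for each gene. The chromosome 1 cluster of 11 genes had 10.2 and 5.45. Its lower fold did not go with fewer reads. Its median reads at the summit per gene were 47.5 in replicate 1 and 37 in replicate 2. These were 43.5 and 20 in the cluster of 34 genes, 44 and 16 in that of 16, and 42 and 26 in that of 5. Peaks were not spread evenly within the largest cluster. The 4 genes at its left end (H2AC1, H2BC1, H1-1 and H3C1) had none, and of the 9 genes from H3C6 to H4C8 at its right end only H3C8 and H4C8 had one.

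**Figure D3:**
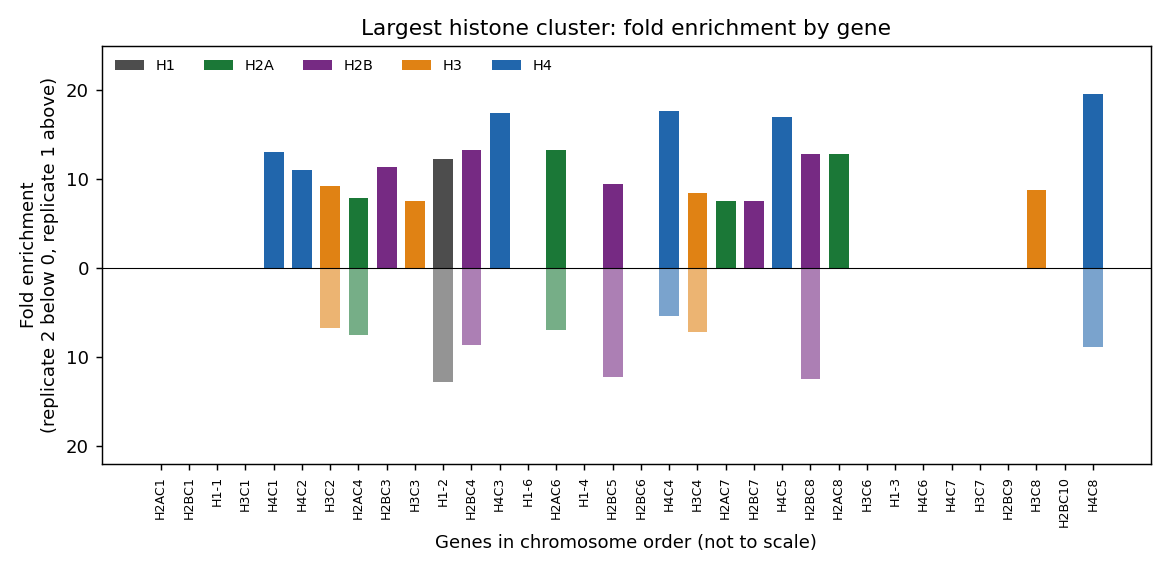
Fold enrichment of the main peak (y axis, linear) of the 34 genes of the largest chromosome 6 cluster in chromosome order (x axis, not to scale), with replicate 1 above 0, replicate 2 below 0, and colours for the classes. Genes without a bar had no peak, and the highest bars are those of H4C8 (19.6), H4C4 (17.7), H4C3 (17.4) and H4C5 (17.0) in replicate 1. A peak shared by neighbouring genes is drawn for each of them.

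Along the genes, the peaks lay over the beginning of the coding sequence. The summit was in coding sequence for 36 of 43 peaks in replicate 1 (83.7%, 95% Wilson interval 70.0 to 91.9%) and for 23 of 31 in replicate 2 (74.2%, 56.8 to 86.3%). It was in the 5′ UTR for 3 and 2 peaks, in the 3′ UTR for 1 and 2, upstream of the gene for 2 and 3 and downstream for 1 and 1. Coding sequence makes up most of these transcripts. Its median was 387 nt in genes with a peak, and the median canonical transcript of the 74 genes was 490.5 nt. A high share of summits in coding sequence is therefore not by itself a preference for it. The downstream peak of replicate 1 lay on HFE, 29724 nt from the H2BC4 start codon. It was counted only because the annotated span of H2BC4 is 37610 bp long. The median summit of the genes with a peak on coding bases was 54 nt from the start codon in replicate 1 (48 genes) and 70 nt in replicate 2 (29 genes). A shared peak counts here for each gene, and the summit lay upstream of the start codon in 12 and 5 genes. Over all 43 and 31 peaks, each given to 1 gene, the median was 75 and 72 nt. In H4C12 it was 3 nt and 8 nt from the start codon, and in H2AC15 70 nt and 72 nt. A peak covered the start codon in 46 of 48 and 25 of 29 genes, and reached the stop codon in 8 and 3. A peak on the coding bases of neighbours that point away from each other covers both start codons by its position.

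The median share of coding bases under a peak was 85.3% in replicate 1 and 73.3% in replicate 2 (mean 79.3 ± 8.43%, SD, n = 2). The peak spanned a median of -237.5 to 328.5 nt from the start codon in replicate 1 and -147 to 289 nt in replicate 2. It extended past the annotated transcript start in 44 of 48 and 25 of 29 genes. The median extension was 201.5 and 106 nt over all 48 and 29 genes, those without one included. A peak shared by neighbouring genes counts in full for each of them in these values. The files give peaks no strand, so whether the upstream part comes from the histone transcript was not tested. The narrowest peaks of the lists were 293 and 294 bp wide.

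A stem-loop lay under a peak in 5 of the 69 genes that have one, namely H2AC18, H2AC19, H2AC25, H3C15 and H4C15. The 69 include genes without a peak in either list, which could not count. The stem-loop ended 0 nt (H4C6) to 18 nt (H2BC8) before the annotated transcript end, except in H2BC21 (1729 nt). Outside H2BC21, a peak can therefore cover it only by reaching the last bases of the transcript or beyond. H4C15 was the 1 gene where this held in both replicates. All of these covering peaks ran past the annotated transcript end, by 117 nt (H2AC25) to 583 nt (H4C15, replicate 1). Among genes with a stem-loop and a peak on coding bases, the peak ended before the stem-loop in 41 of 45 in replicate 1 and in 25 of 27 in replicate 2. The median distance from the edge of the peak to the stem-loop was 93 and 102 nt.

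**Figure D4:**
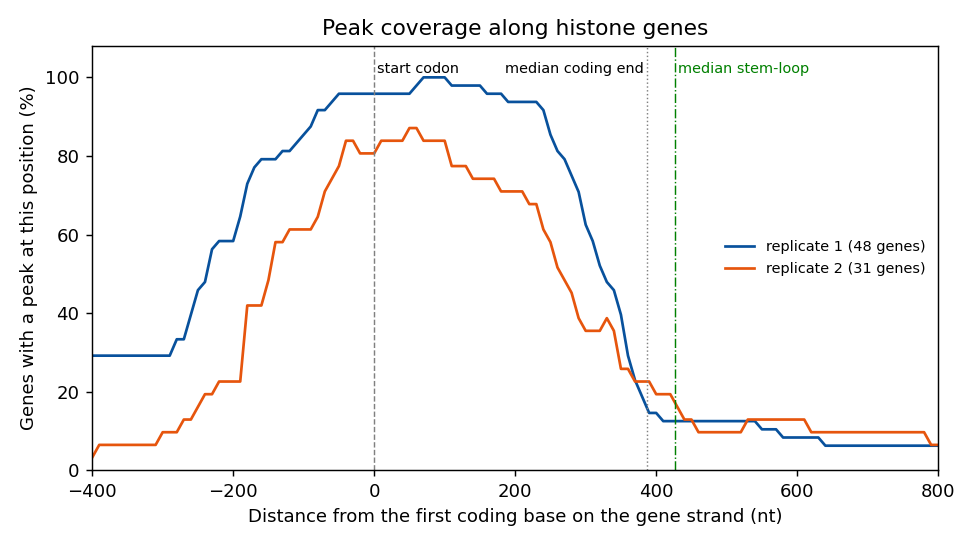
Share of histone genes with a peak in the list (y axis, %) whose peaks cover each position, by distance from the first coding base on the gene strand (x axis, nt), for replicate 1 (48 genes) and replicate 2 (31 genes), with vertical lines at the start codon, the median coding end (387 nt) and the median stem-loop start (426.5 nt). Coverage is highest in the first part of the coding sequence in both replicates and has fallen before the stem-loop.

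H2A and H2B genes are often arranged back to back. There were 12 such pairs, with start codons 304 to 382 nt apart and pointing away from each other. In replicate 1 a single peak reached the coding bases of both genes in 7 pairs (H2BC4 and H2AC6, H2AC7 and H2BC7, H2BC8 and H2AC8, H2BC11 and H2AC11, H2BC12 and H2AC12, H2AC14 and H2BC14, H2AC15 and H2BC15). In replicate 2 no peak did so. Of those 7 pairs, H2BC4 and H2AC6 had separate peaks in replicate 2, H2AC7 and H2BC7 had none, and the others had a peak on the coding bases of 1 gene (H2BC8, H2AC11, H2BC12, H2AC14 and H2AC15). H2AC8, H2BC11, H2BC14 and H2BC15 were thus in replicate 1 through a peak shared with a neighbour, at folds of 12.8, 11.5, 12.6 and 12.7, and absent from replicate 2. H2AC7 and H2BC7 shared a peak of 7.51. When each peak was given only to the gene with the largest coding overlap, 41 genes remained in replicate 1, 30 in replicate 2 and 27 in both.

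The letters GGAC, the commonest core of m6A sites, were searched on the gene strand in a window reaching 50 nt to either side of each summit. TGGAC, which contains GGAC, was searched as well. GGAC was in 5 of 43 histone windows in replicate 1 (11.6%) and in 7 of 31 in replicate 2 (22.6%), against 29.1% and 32.0% of all windows placed on a gene. TGGAC was in 1 window of each replicate (2.33% and 3.23%, against 9.99% and 10.0%). The genes with GGAC at the summit in both replicates were H4C16, H2BC5 and H2AC17. The histone windows had a median GC content of 57.4% and 59.4%, against 49.5% and 56.4% over all windows. GGAC was in the coding sequence of 53 of the 74 genes, so its share at the summits describes these windows only.

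Histone genes have near-identical copies, and a read from one can be placed on another. The median identity of coding sequences between members was 89.8% in H2B, 85.3% in H3, 85.0% in H2A, 83.3% in H4 and 53.0% in H1. Runs of 31 bases around the summit occurred once in hg38 for 34 of 43 histone peaks in replicate 1 (79.1%) and 22 of 31 in replicate 2 (71.0%), against 90.8% and 91.9% of all peaks. The summit of H2BC13 (11.5 and 8.74) occurred 11 times and that of H2BC12L 10 times.

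In 4 pairs the coding sequences were identical, and the peaks on them were not. H4C12 had the highest fold of replicate 1 (21.4), while H4C11 had no peak. H2AC18 had 11.0 with 143 reads and 9.76 with 67 reads, and H2AC19 had 4.67 with 55 reads and 3.99 with 34 reads. H4C14 had 30 and 8 reads at the summit, and H4C15 had 109 and 57. H3C14 had a peak in replicate 1 alone (3.19) and H3C15 in replicate 2 alone (4.66), each on 40 reads. The values of such a pair cannot be assigned to 1 of its genes. Of the 25 genes without a peak, 14 had over 90% of coding 31-base runs unique in the genome and 5 had under 50%. Of the 49 genes with a peak, 21 had over 90% and 14 had under 50%. The medians were 96.2% without and 87.3% with a peak. Whether read placement bears on the absence of a peak was not tested.

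**Figure D5:**
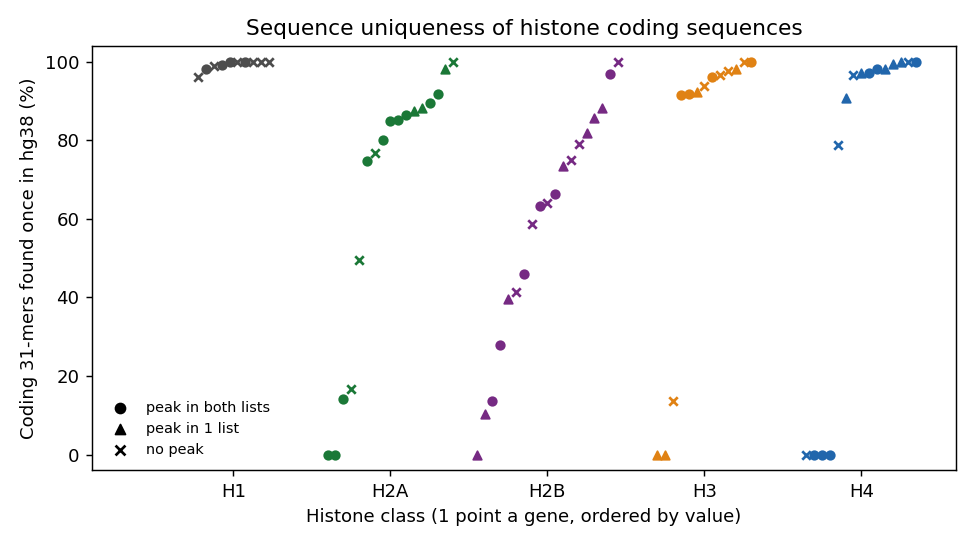
Share of the 31-base runs of each coding sequence that occur once in hg38 (y axis, %) by class (x axis, 1 point a gene in order of value), with circles for a peak in both lists, triangles for a peak in 1 list and crosses for no peak. The 25 genes without a peak have a median of 96.2%, and genes at 0% include both with and without a peak.

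Other genes of histone biology were counted in the same way, from lists of 10 replication-independent histones, 16 genes of histone mRNA processing and 9 histone chaperones. The replication-independent histones, which are made throughout the cell cycle and mostly end in a poly(A) tail, had a peak in both lists in 6 of 10 genes, overlapping in all 6, against 34.7% and 30.5% of all protein-coding genes. These lists are too short for the shares to be read closely. The highest was H3-5, an intronless near copy of H3-3B, with 18.9 and 16.8. Whether reads of H3-3B were placed on H3-5 was not tested. MACROH2A1 had 11.5 and 13.5, H3-3B had 9.44 and 8.80, H2AZ2 had 7.72 and 8.66, H2AJ had 5.06 and 7.75, and H2AX had 4.66 and 6.58. H2AZ1 had a peak in replicate 1 alone, CENPA in replicate 2 alone, and H3-3A and MACROH2A2 none. Of these 6 genes, 4 were higher in replicate 2.

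Of the processing genes, 11 of 16 had a peak in both lists, and the peaks overlapped in 9, beside the same background of 34.7% and 30.5%. SLBP, the stem-loop binding protein, had 10.4 with 32 reads and 7.0 with 13 reads. NPAT, which activates histone transcription, had 7.34 and 8.0, and LSM10, a protein of the U7 particle that processes the histone end, had 11.4 and 8.39. CASP8AP2, CSTF2, LSM11 and ZNF473 had no peak, and CPSF2 had one in replicate 2 alone. Of the chaperones, which escort histones to and from DNA, 6 of 9 had overlapping peaks in both lists (background 30.5%). CHAF1A, of the replication-coupled assembly factor, had 9.29 and 6.0, HIRA had 11.9 and 15.7, and CHAF1B and NASP had none.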

How the data were processed

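IGF2BP3 LACE-seq of 2 replicates of OE-19 cells, 1 group, was analysed from 1 peak list each. The histone genes, the lists of other genes and the comparisons were chosen with earlier results of these data known. Per the study's methods, the authors removed pre-rRNA reads, aligned to hg38 with Bowtie, keeping reads with up to 10 positions, and called peaks with Piranha. A separate list was deposited for each replicate. The submitters' processing notes instead name fastp, HISAT2 and MACS2, without versions, and the files have the narrowPeak layout. Reads placed at several positions affect genes with near-identical copies.

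The authors deposited fold enrichment, the ratio of summit signal to local background. The deposited q-value is on the −log10 scale, with lowest values of 2.18 and 2.15. The deposited score column was not used here, and the deposited p-value, also on the −log10 scale, served only to recover reads. Read totals are unknown. The whole number of reads at each summit was recovered from the fold and p-value under a Poisson distribution, for 21142 of 21142 and 20799 of 20799 peaks, after the step was tested on simulated data. Peaks on scaffolds (46 and 36) lay on no annotated gene.

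A peak was given to a gene from 1 shared bp with its span, and the main peak of a gene is the one with the largest overlap with the coding bases of its canonical transcript, or else the largest fold. Percentiles are ranks of fold within a list. With 1 group, no test was made. Sequence was read from hg38 with biopython 1.88, and copies of 31 bases were counted on both strands without alternate scaffolds. The named genes are, per class, the 3 highest by the lower of the 2 percentiles, those with a peak in 1 list, the 3 with the largest difference in percentile and the smaller clusters. Tools were Python 3.11.15, pandas 2.3.3, scipy 1.17.1 and numba 0.67.0. The values of 1 gene of the set are not reported here, although the counts include it.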

Additional observations from a re-analysis of the deposited data

How the results depend on the processing

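Of 49 values recomputed under 14 settings, 10 of them under settings chosen after seeing the data, 43 moved by less than the spread between replicates or by less than 1.5 times for counts. With a −log10 q of at least 10, histone genes with a peak in both lists came to 19 and those with overlapping peaks to 19, in place of 30 and 29. With summits required to lie within 50 bp, 12 genes had overlapping peaks. With only peaks whose summit 31-mer is unique, the stem-loops under a peak came to 1 in place of 5. Leaving out each replicate gave 31 to 48 genes with a peak and 2 to 4 stem-loops. The median fold then ranged from 7.32 to 10.8, the coding coverage from 73.3 to 85.3% and the share of summits in coding sequence from 74.2 to 83.7%, which for 2 replicates cannot exceed their own spread. The cause of these changes was not tested. No paired analysis was possible because there is 1 group. The smallest summit in either list held 4 reads, and library sizes are unknown, so no limit of detection can be given for genes without a peak.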
